A study of Homo sapiens and Mus musculus with 69 samples.

Results

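*YAP1* and *WWTR1*, which encodes TAZ, the TEAD transcription factor genes *TEAD1*, *TEAD2*, *TEAD3* and *TEAD4*, and the target genes *AMOTL2*, *ANKRD1*, *AJUBA* and *LATS2* were followed by bulk RNA-Seq through small cell lung cancer (SCLC) cells in which Notch signaling had been switched on. The members were taken by symbol, with no use of their values in the rule, but with earlier results of these data known. All 10 symbols were found among the 20516 genes of the human table and, in title case, among the 18501 genes of the mouse table. The 69 libraries comprised 60 of human SCLC lines (H82, H524, COR-L88 and H69) and 9 of KP1, a mouse SCLC line mutant for *Rb1* and *Trp53*, in 23 groups of 3 libraries. In H82, the 7 groups were parental cells, cells carrying a doxycycline-inducible vector for the NOTCH1 intracellular domain (*N1ICD*, labelled NOTCH1) without and with doxycycline, and the same vector cells with *REST* KO or with *STING1* KO (labelled STING KO), each without and with doxycycline. H524 had parental cells, *N1ICD* cells and cells with an inducible *REST* vector, the vector cells without and with doxycycline. H69 had parental cells and *N1ICD* cells without and with doxycycline. COR-L88 and KP1 cells received DMSO, the LSD1 inhibitor TAS1440, or TAS1440 plus a γ-secretase inhibitor (GSI), which blocks release of the active Notch fragment, and COR-L88 cells with *STING1* KO received DMSO or TAS1440. The GSI of COR-L88 and that of KP1 were different compounds. Each KO used a single guide RNA, no group held parental cells with doxycycline, and the samples' labels give neither time nor dose. The paper states times and doses, and its times differ between some of the lines. Line and time cannot be told apart there. The paper's immunoblots of *REST* KO and *STING1* KO cells show single-cell clones, and the labels name no clone. An effect of a KO and a difference between clones cannot be told apart here. In the overexpression experiments the adherent cells were collected after doxycycline, so that induction of the vector and selection of adherent cells cannot be told apart. Nothing in the labels says that the 3 libraries of a group came from separate cultures, and *P* values then measure only the spread between these libraries, which may be technical.

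YAP and TAZ are transcriptional coactivators that have no DNA-binding domain of their own and act through TEAD factors. The Hippo kinases MST and LATS phosphorylate them and keep them in the cytoplasm, so that mRNA levels are only a part of how their activity is set. In SCLC, YAP1 is known to be low or absent in most neuroendocrine cells, which grow in suspension, and present in non-neuroendocrine cells, and Notch signaling is known to lower neuroendocrine genes in this tumor type, in part through the repressor REST.

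All values are log2(RPKM + 1) as deposited, a scale per gene length that starts at 0 and compresses changes of weakly expressed genes. A difference is the mean of one group minus the mean of another on this scale, from limma fitted across all genes of a cell line, and "higher" or "lower" is written where the Benjamini-Hochberg adjusted *P* was under 0.05 and the difference was at least 1. Read counts are not part of the tables, so that the depth of a library is unknown. Where members under an unadjusted *P* of 0.05 are counted, the share of all genes was not counted, so that these numbers are a description. Libraries are numbered as in the labels. The median difference of a library from the others of its group was 0.066 to 0.45. Library 4 (H82 *N1ICD* without doxycycline) had the largest of these values, and libraries 22 (H524 *N1ICD* without doxycycline), 41 (COR-L88 *STING1* KO with DMSO) and 49 (H69 *N1ICD* without doxycycline) had members far from the other libraries of their groups, as given below. Genes entered a fit if 3 of its libraries reached a value of 1, which all 10 members did in H82, H69 and COR-L88, 9 in H524 and 7 in KP1. Members with fewer than 3 such libraries outside the doxycycline and TAS1440 groups of their line entered only through the groups where they were high and so had to differ. These were 2 of 10 in H82 (*ANKRD1* and *LATS2*), 3 of 9 in H524 (*YAP1*, *AJUBA* and *LATS2*), 8 of 10 in H69 (all but *TEAD1* and *TEAD4*), 3 of 10 in COR-L88 (*YAP1*, *TEAD2* and *LATS2*) and 5 of 7 in KP1 (all but *Tead1* and *Amotl2*), so that counts of members called are a description and are not read against the share over all genes. The *P* values given below for these members in these lines, treated against untreated, are likewise a description and no test of a response. The neuroendocrine markers *INSM1*, *CHGA*, *SYP* and *NCAM1* had group means of 3.24 to 8.83 in parental H82, H524 and H69 cells and in COR-L88 cells with DMSO, with *NEUROD1* at 13.31 in H82, 13.79 in H524, 4.37 in H69 and 5.69 in COR-L88. Of 5 leukocyte and endothelial markers, 4 were in the human table and 3 in the KP1 table, and none of these passed the filter in any line. *NOTCH1* had values of 1.45, 0.88 and 1.15 in uninduced H82 *N1ICD* cells and of 4.75, 4.26 and 5.56 after doxycycline, while induced *REST* KO cells had 8.75, 9.15 and 10.74 and induced *STING1* KO cells 5.97, 7.41 and 7.48, so that the induced transcript differed between these lines.

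Short stretches of the promoters of *YAP1* and of the target genes are given with the letters of the TEAD core motif, CATTCC or GGAATG on the other strand, in capitals, because TEAD factors are the route by which YAP and TAZ reach DNA. They were read from RefSeq windows (GRCh38.p14) of 250 bases before and 50 bases after a gene start and placed on GRCh37, the build of the human table, where each had a single match. The YAP1 stretch lies at chr11:101981004-101981033 (plus strand), the AMOTL2 stretch at chr3:134093341-134093370, the ANKRD1 stretch at chr10:92680955-92681076, the AJUBA stretch at chr14:23446093-23446122 and the CCN2 stretch at chr6:132272590-132272693 (all minus strand), written 5′ to 3′ in the direction of transcription.
YAP1: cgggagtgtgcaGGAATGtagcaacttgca
AMOTL2: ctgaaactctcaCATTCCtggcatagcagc
ANKRD1: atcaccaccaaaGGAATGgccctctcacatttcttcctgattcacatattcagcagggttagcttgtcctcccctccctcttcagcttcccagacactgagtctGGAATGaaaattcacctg
AJUBA: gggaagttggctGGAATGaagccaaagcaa
CCN2: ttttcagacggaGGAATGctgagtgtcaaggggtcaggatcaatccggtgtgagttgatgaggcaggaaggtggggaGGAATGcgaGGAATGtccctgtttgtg
Counted from the gene start, the motif began at position -162 in *YAP1*, -69 from one of the starts of *AMOTL2* and -59 from one of the starts of *AJUBA*. It lay at -220 and -128 in *ANKRD1* and at -169, -104 and -95 in *CCN2*. In *LATS2* it lay after the start. Windows of *WWTR1*, *TEAD2* and *TEAD3* did not hold these letters, and *TEAD1*, *TEAD4* and *CCN1* had no window. Of all 35116 promoter windows, 14.0% held the motif, so that a match is a description of the letters and not of binding. The *AMOTL2* and *AJUBA* stretches overlap exons of other transcripts of the same genes, the *YAP1* stretch lies in an exon of another annotated gene, and the *CCN2* stretch lies within a transcript of *LINC01013*.

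Without induction the lines differed in *YAP1* itself. *YAP1* (chr11:101981178-102104155, plus strand of GRCh37) was listed at 0 in all 3 parental H69 libraries and at 0, 0 and 0.16 in parental H524 libraries. In COR-L88 cells with DMSO its values were 1.36, 1.00 and 0.86. Parental H82 cells had 2.82, 2.36 and 2.60, above every uninduced or DMSO library of the other lines. *WWTR1* (chr3:149235022-149454501, minus strand) did not follow this order, with values of 0.10, 0.12 and 0 in parental H82, 0, 0.033 and 0.058 in parental H69, 1.38, 1.08 and 1.70 in parental H524 and 1.89, 1.50 and 1.53 in COR-L88 with DMSO. Parental H82 cells thus held *YAP1* with little *WWTR1*, and parental H524 cells *WWTR1* with little *YAP1*.

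*YAP1* was higher with doxycycline in the *N1ICD* cells of each of the 3 lines tested. In H82 its values were 4.36, 4.60 and 4.14 without and 7.07, 6.85 and 6.88 with doxycycline, a difference of 2.56 ± 0.17 (SE, adjusted *P* = 9.70e-10). H524 went from 0.11, 0.20 and 0 to 5.55, 6.50 and 6.42, a difference of 6.05 ± 0.29 (SE, adjusted *P* = 2.24e-09). In H69 the values were 0.92, 0 and 0 without doxycycline, library 49 being the one above 0, and 7.39, 7.46 and 7.43 with it, a difference of 7.12 ± 0.22 (SE, adjusted *P* = 9.47e-09). The groups with and without doxycycline did not overlap in any of the lines, and the 3 induced levels lay closer together than the uninduced ones. In H524 and H69, *YAP1* had passed the filter only through doxycycline libraries, so that its *P* values there are a description.

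*WWTR1* rose beside it in all 3 lines. Its values in H82 were 1.76, 2.05 and 1.83 without and 3.97, 3.68 and 3.84 with doxycycline (difference 1.95 ± 0.16 SE, adjusted *P* = 2.33e-08). In H524 they were 0.60, 0.54 and 0.63 and 2.98, 3.39 and 3.41 (difference 2.67 ± 0.20 SE, adjusted *P* = 1.65e-07), and in H69 0.11, 0.04 and 0.086 and 3.17, 3.17 and 3.12 (difference 3.08 ± 0.06 SE, adjusted *P* = 4.65e-10). No library with doxycycline was as low as any without it. Over all members, 8 of 10 were called higher in H82 against 14.7% of the 13903 genes tested, 8 of 9 tested in H524 against 11.4% of 13648, and 9 of 10 in H69 against 21.4% of 13580. *YAP1*, *WWTR1*, *TEAD2*, *TEAD3*, *AMOTL2*, *AJUBA* and *LATS2*, 7 in all, were called higher in each of the 3 lines. In H69 these 7 had passed the filter only through doxycycline libraries and so had to differ there. The share of all genes called higher in each of the 3 lines was not counted, so that the 7 are a description. Of the members that passed the filter without their induced libraries, 6 of 8 were higher in H82, 5 of 6 in H524 and 1 of 2 in H69 (*TEAD4*). With a pseudocount of 0.1 the difference of *WWTR1* in H69 was 5.68. The same members were called in each line when libraries 4, 22, 41 and 49 were left out together.

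**Figure D1:**
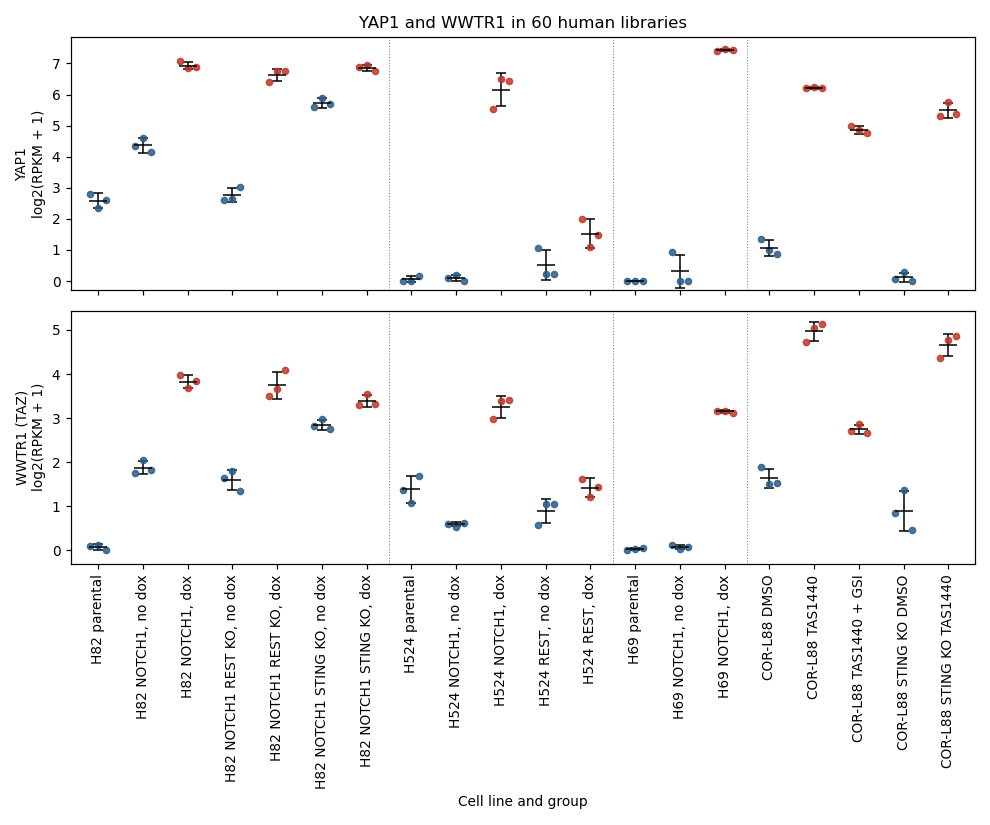
*YAP1* and *WWTR1* as log2(RPKM + 1) (y axis) in the 20 human groups (x axis, dotted lines between cell lines), with points for libraries, bars for the mean and SD of 3 libraries, and red for doxycycline or TAS1440. *YAP1* in *N1ICD* cells with doxycycline sits between 5.55 and 7.46 and in H524 *REST* cells with doxycycline between 1.10 and 2.01, while uninduced levels range from 0 in H69 to 5.90 in H82 cells with *STING1* KO.

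Neuroendocrine markers moved in the other direction in the same libraries. Of the list *NEUROD1*, *INSM1*, *CHGA*, *SYP* and *NCAM1*, 5 of 5 tested were lower with doxycycline in H82, 5 of 5 in H524 and 5 of 5 in H69. Over all genes the shares called lower were 12.4%, 7.19% and 20.4%. *INSM1*, a neuroendocrine transcription factor, had differences of -3.18 in H82, -3.03 in H524 and -8.34 in H69. H69 *N1ICD* cells already stood apart from parental H69 cells without doxycycline, with *NEUROD1* at 5.03, 4.77 and 3.31 in parental and 10.61, 8.88 and 8.69 in *N1ICD* cells. The share of cells in each state and the amount of RNA per cell cannot be told apart in bulk libraries.

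The TEAD factors did not move as a block. *TEAD2* (chr19:49843852-49865714, minus strand) and *TEAD3* (chr6:35441374-35464856, minus strand) rose in all 3 lines. *TEAD2* values went from 1.92, 1.95 and 2.08 to 3.82, 4.12 and 3.98 in H82 (difference 1.99 ± 0.20 SE, adjusted *P* = 1.62e-07), from 0.36, 1.72 and 1.64 to 3.03, 3.40 and 3.48 in H524 (difference 2.06 ± 0.34 SE, adjusted *P* = 3.67e-04), and from 0.50, 0.091 and 0.099 to 4.48, 4.45 and 4.38 in H69 (difference 4.21 ± 0.11 SE, adjusted *P* = 3.67e-09). In H524 library 22 was the lowest without doxycycline, and the groups did not overlap in any line. Parental H524 cells, at 3.16, 2.54 and 3.65, covered the range of the induced H524 cells, so that *TEAD2* rose there from a vector line that lay below the parental cells. *TEAD3* rose by 1.29 in H82, 2.27 in H524 and 4.69 in H69, where it was listed at 0.84, 0.14 and 0.095 without and 5.08, 5.03 and 5.04 with doxycycline.

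*TEAD1* (chr11:12695968-12966284, plus strand) was expressed before induction in every line and was called higher only in H524 among the 3 *N1ICD* lines, from 3.66, 3.19 and 3.67 to 5.24, 5.78 and 6.13 (difference 2.20 ± 0.29 SE, adjusted *P* = 4.31e-05). In H82 the difference was 0.79 ± 0.17 (SE, adjusted *P* = 9.08e-04), under the threshold of 1, and in H69 it was -0.11 (95% interval -0.33 to 0.12). *TEAD4* (chr12:3068496-3149842, plus strand) took a different direction in different lines. With doxycycline it was lower in H82, from 3.91, 4.56 and 4.47 to 3.53, 3.06 and 3.33 (difference -1.01 ± 0.22 SE, adjusted *P* = 0.00104), the 1 member called lower against 12.4% of genes tested, and leaving out library 5, 6 or 8 took the difference under the threshold of 1. It was higher in H69, from 3.74, 3.24 and 3.23 to 4.83, 4.70 and 4.69 (difference 1.34 ± 0.16 SE, adjusted *P* = 4.54e-05), and differed by -0.23 in H524 (95% interval -0.67 to 0.21).

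On the RPKM scale, the summed level of the 4 TEAD genes was 52.1 ± 10.2 (SD, *n* = 3) without and 87.2 ± 13.8 with doxycycline in H82, 24.8 ± 3.53 and 84.1 ± 20.2 in H524, and 41.1 ± 1.01 and 107 ± 3.07 in H69. The make-up of this sum changed in a line-specific way. In H69, *TEAD1* made up 75.0% of it without and 26.6% with doxycycline, while *TEAD3* went from 0.789% to 30.0% and *TEAD2* from 0.448% to 19.3%. In H524, *TEAD1* went from 43.7% to 62.6%. In H82, *TEAD4* went from 36.8% to 10.3% and *TEAD3* from 25.0% to 38.0%, with *TEAD1* at 32.4% and 34.3%. These shares are means of 3 libraries and rest on the gene lengths used for RPKM, which are not given in the sources used here. The smallest values of the human table followed exonic length (Spearman's rho -0.46 across 4323 genes) and gene span (-0.34) only loosely. The lengths could not be read from them, and the sizes of the shares are therefore uncertain.

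**Figure D2:**
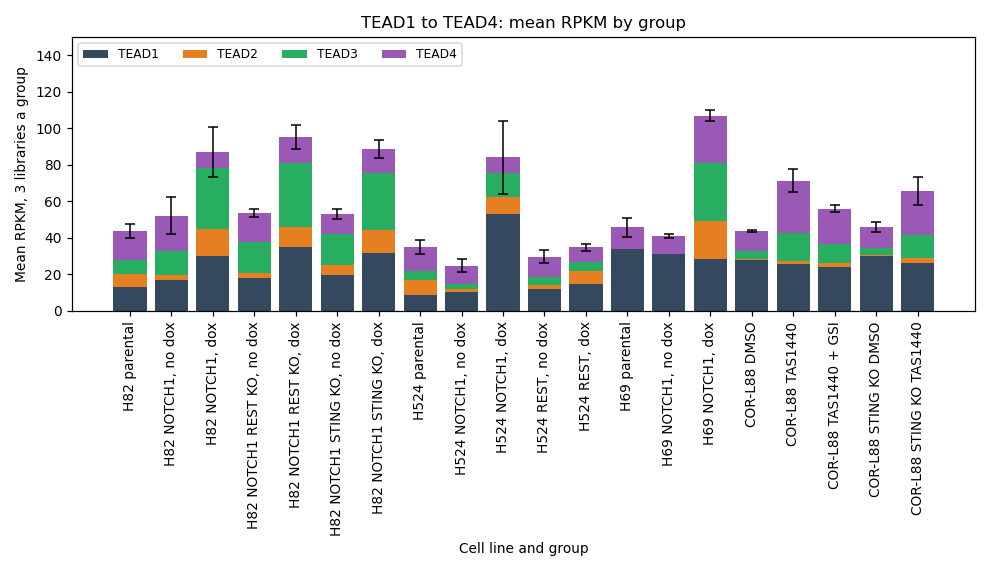
Mean RPKM of *TEAD1*, *TEAD2*, *TEAD3* and *TEAD4* (stacked, y axis from 0) in the 20 human groups (x axis), with the SD of the sum over 3 libraries as error bars. The sum is largest in H69 *N1ICD* cells with doxycycline, at 107 ± 3.07, with parts from 19.3% (*TEAD2*) to 30.0% (*TEAD3*), and in induced H524 *N1ICD* cells *TEAD1* takes 62.6% of it.

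Among the target genes, *AMOTL2* (chr3:134074189-134094321, minus strand), an angiomotin family protein that binds YAP and holds it outside the nucleus, was already expressed without induction in H82 and H524, and less so in H69. Its values were 7.34, 6.11 and 5.18 without and 8.93, 8.49 and 8.78 with doxycycline in H82 (difference 2.53 ± 0.44 SE, adjusted *P* = 1.16e-04), library 4 being the highest of the uninduced ones. It went from 2.10, 2.16 and 2.49 to 5.51, 5.92 and 5.06 in H524 (difference 3.24 ± 0.37 SE, adjusted *P* = 1.10e-05) and from 2.37, 0.42 and 1.03 to 7.28, 7.30 and 7.35 in H69 (difference 6.04 ± 0.41 SE, adjusted *P* = 1.27e-06). The groups did not overlap, but induced H524 cells did overlap with parental H524 cells, at 4.98, 4.00 and 5.43.

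*ANKRD1* (chr10:92671853-92680844, minus strand) is a nuclear ankyrin repeat protein. It had values of 0.037, 0.36 and 0.12 without and 3.85, 4.20 and 3.11 with doxycycline in H82, a difference of 3.55 ± 0.39 (SE, adjusted *P* = 5.94e-07). H69 had it listed at 0 in each uninduced library and at 3.93, 3.94 and 4.13 after doxycycline. In H524 its values with doxycycline were 0.19, 0.096 and 0.10, too low to be tested, although *YAP1* and *WWTR1* were higher there.

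*AJUBA* (chr14:23440386-23451760, minus strand), a LIM domain protein that binds LATS kinases and restrains them, had values of 0.72, 0.63 and 0.73 without and 5.35, 4.70 and 4.89 with doxycycline in H82 (difference 4.29 ± 0.25 SE, adjusted *P* = 1.63e-10), the largest difference of a member in that line. With a pseudocount of 0.1 the difference of *ANKRD1* was larger there, at 5.88 against 5.42. *AJUBA* rose by 2.35 ± 0.24 (SE, adjusted *P* = 5.09e-06) in H524 and by 3.18 ± 0.09 (SE, adjusted *P* = 7.01e-09) in H69. *LATS2* (chr13:21547175-21635725, minus strand), a kinase that inhibits YAP and is itself a YAP target, was near 0 without induction and rose in each line. It went from 0.037, 0.099 and 0.14 to 3.11, 2.58 and 2.93 in H82 (difference 2.78 ± 0.21 SE, adjusted *P* = 4.30e-09), from 0.071, 0.42 and 0.46 to 2.58, 2.87 and 2.66 in H524 (difference 2.39 ± 0.15 SE, adjusted *P* = 4.65e-08) and from 0.032, 0 and 0.017 to 3.21, 3.09 and 3.22 in H69 (difference 3.16 ± 0.06 SE, adjusted *P* = 5.84e-10). With doxycycline the 3 lines were within 1 log2 unit of each other in *LATS2*, and with a pseudocount of 0.1 its differences were 5.29, 4.15 and 6.19.

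**Figure D3:**
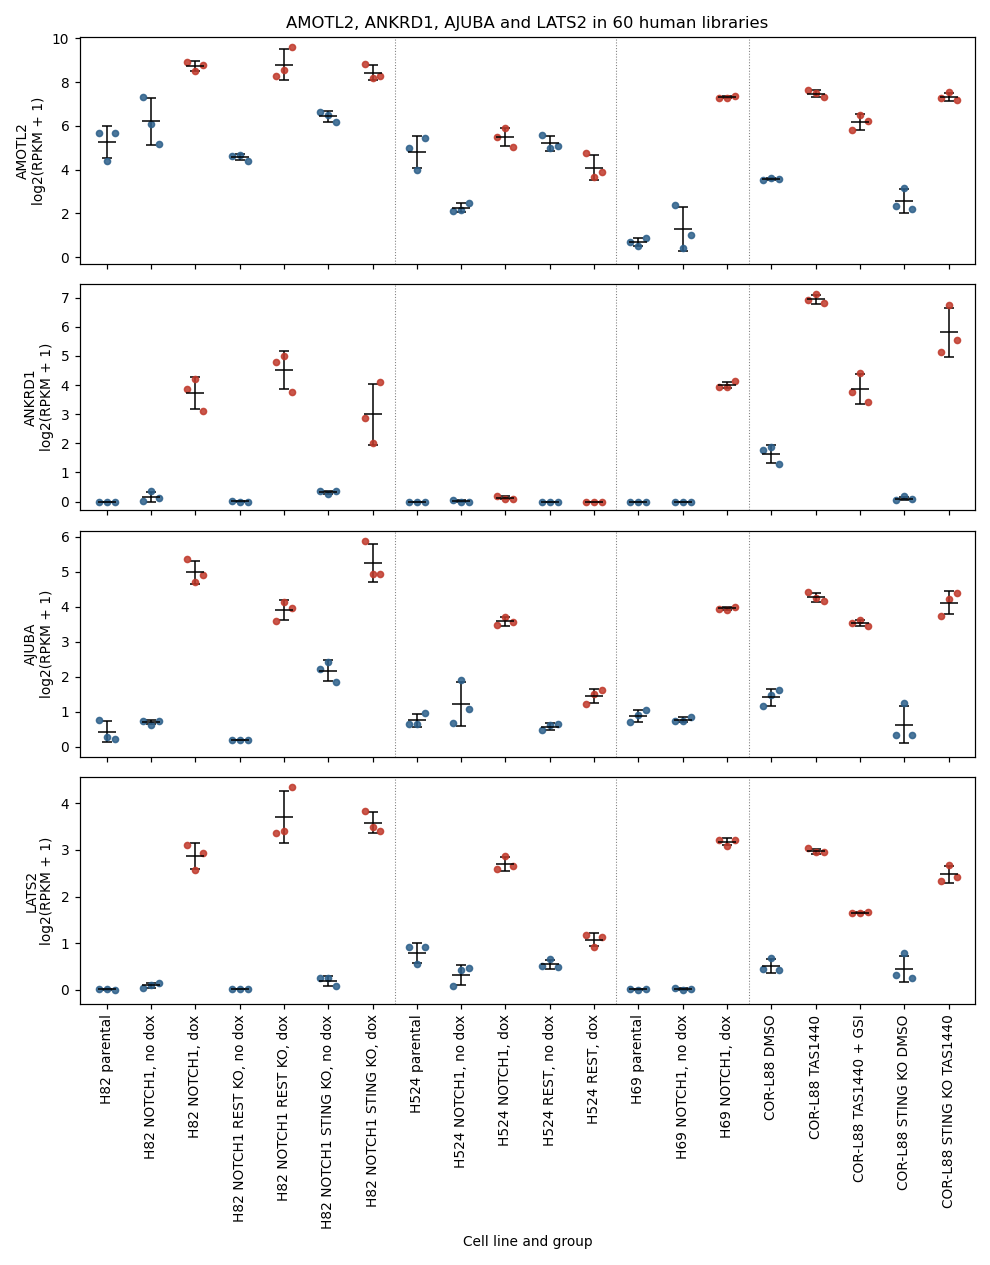
*AMOTL2*, *ANKRD1*, *AJUBA* and *LATS2* as log2(RPKM + 1) (y axes) in the 20 human groups (x axis), with points for libraries, bars for the mean and SD of 3 libraries, and red for doxycycline or TAS1440. *ANKRD1* is near 0 in every H524 library and reaches 6.91, 7.11 and 6.80 in COR-L88 cells with TAS1440.

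A list of 19 other YAP and TAZ target genes was counted in the same way, and those that passed the filter through induced libraries alone had to differ as well. With doxycycline 12 of 17 tested were higher in H82 (median difference 2.26, against 0.00 over all genes), 9 of 18 in H524 (median 1.11, all genes -0.02) and 11 of 17 in H69, where *FJX1* and *GADD45A* were lower (median 2.33, all genes 0.08). *CCN1* (listed as *CYR61*) and *CCN2* (listed as *CTGF*), secreted matricellular proteins and the most used YAP readouts, had differences of 6.74 and 8.12 in H82, 5.47 and 2.82 in H524, and 6.43 and 7.54 in H69. In H524 *CCN2* reached 2.48, 4.22 and 2.70, below 8.67, 8.49 and 9.04 in H82 and 7.72, 7.73 and 7.62 in H69. *AXL*, a receptor tyrosine kinase, rose by 5.71 in H82, 7.77 in H524 and 8.41 in H69, and was the largest of the list in H524 and H69. *TGFB2*, a growth factor, rose by 6.35 in H82 and was not called in H69 (difference 0.27, adjusted *P* = 0.308), while in H524 it was too low to be tested, at 2.39, 0.88 and 0.59 with doxycycline.

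In the list of the 16 kinases and regulators, all tested, 4 were higher and none lower in H82, 2 higher and none lower in H524, and 6 higher and 2 lower in H69. Over all genes the shares called were 14.7% higher and 12.4% lower in H82, 11.4% and 7.19% in H524 and 21.4% and 20.4% in H69, and the 2 of 16 in H524 were near that share. *WTIP*, an AJUBA family protein, rose in all 3 lines, by 4.35, 3.88 and 3.14. *FRMD6*, an upstream Hippo regulator, rose by 2.06 in H82 and 1.70 in H69. In H69, *STK3*, which encodes MST2, rose by 2.43, and *AMOTL1* was lower (difference -1.88). Of the VGLL genes, whose products compete with YAP for TEAD, *VGLL3* rose by 3.49 in H82, 2.41 in H524 and 1.49 in H69.

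The response to *N1ICD* differed in size between the lines when the differences themselves were compared in one fit of all 60 human libraries. Between H69 and H82, 6 members had a larger response in H69, against 21.9% of 15888 genes, and *AJUBA* a smaller one, against 21.2%. Between H524 and H82, 2 members had a larger response in H524 (10.1% of genes) and 2 a smaller one (9.59%). Between H69 and H524, 6 had a larger response in H69 (17.8%), and *TEAD1* a smaller one (19.0%). The 3 lines also differed in their uninduced level of *YAP1*, from 0 in H69 to 4.60 in H82, and in induced *NOTCH1*, which reached 7.58, 8.29 and 8.31 in H524 and 8.07, 7.93 and 7.97 in H69. Their part in the differences was not tested.

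**Figure D4:**
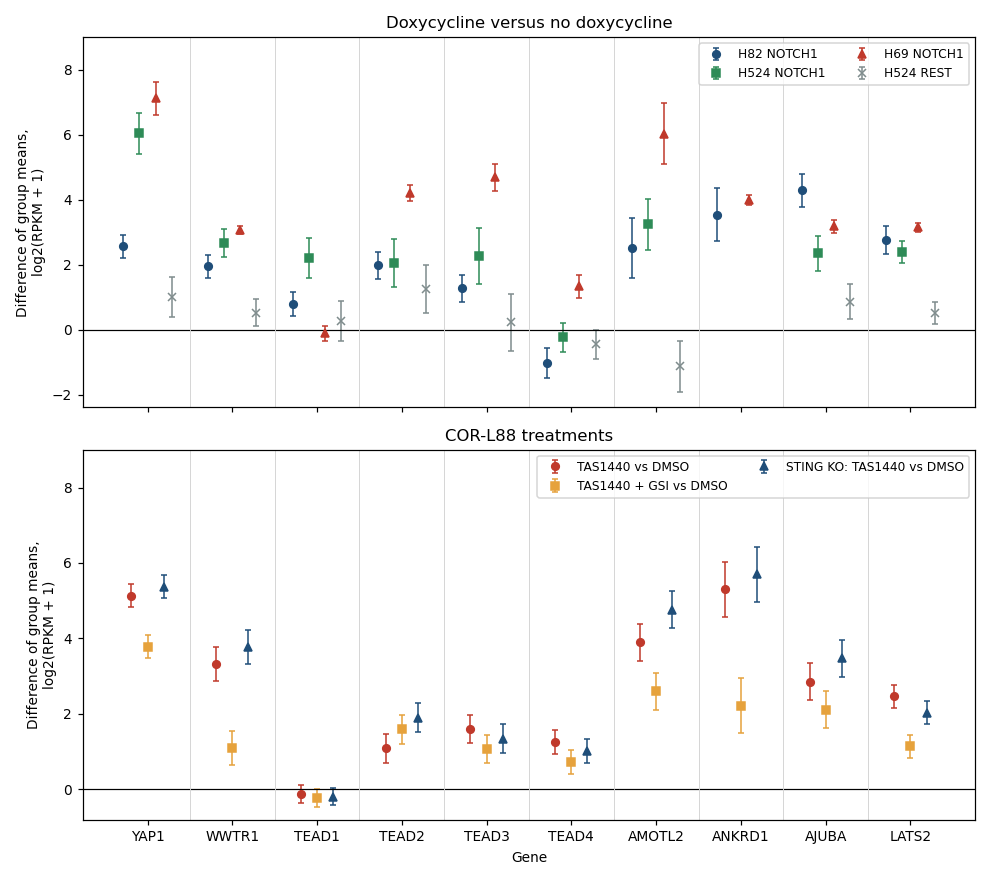
Difference of group means in log2(RPKM + 1) (y axis) for the 10 members (x axis), with the 95% interval of limma as bars. The upper panel gives doxycycline against none for *N1ICD* in H82, H524 and H69 and for *REST* in H524, and the lower panel gives the COR-L88 treatments against DMSO. *YAP1* ranges from 2.56 in H82 to 7.12 in H69, and the values for *REST* lie between -1.11 and 1.26. *ANKRD1* was not tested in H524, and its point for H69 starts from values listed at 0 and depends on the pseudocount.

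Whether *REST* alone moved these genes was asked in H524. The induced *REST* transcript had values of 5.05, 5.03 and 4.90 without and 6.87, 10.72 and 9.43 with doxycycline. None of the 9 members tested was called, against 1.87% of genes tested called in either direction. By limma's unadjusted *P*, 7 of 9 were under 0.05, and the groups of these 7 did not overlap. The gap was narrow for *YAP1* (1.08 without against 1.10 with doxycycline) and for *TEAD4* (lowest 3.529 without, highest 3.527 with doxycycline). The share over all genes was counted for neither measure. The lowest adjusted *P* was 0.0685 (*TEAD2*, difference 1.26), and *YAP1* had values of 1.08, 0.23 and 0.24 without and 2.01, 1.10 and 1.47 with doxycycline (difference 1.01 ± 0.29 SE, adjusted *P* = 0.0848). *AMOTL2* had a difference of -1.11 (95% interval -1.90 to -0.33), and *ANKRD1* was listed at 0 in all 6 libraries. The absence of calls depended on the fit, since *TEAD2* was called higher with only the compared groups, and *TEAD2* and *YAP1* with all 60 human libraries in 1 fit.

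Between the induced cells, *N1ICD* stood above *REST* in 7 of the 9 members tested, against 12.3% of genes tested. *YAP1* differed by 4.63 ± 0.29 (SE, adjusted *P* = 3.04e-08), *AJUBA* by 2.14 ± 0.24 (SE, adjusted *P* = 1.12e-05), *WWTR1* by 1.83, *TEAD1* by 1.73, *LATS2* by 1.63, *AMOTL2* by 1.40 and *TEAD3* by 1.27. The call of *TEAD3* was lost without library 26, 27, 38 or 39 and with a pseudocount of 0.1. The response to doxycycline was itself larger with *N1ICD* than with *REST* in 7 members, against 9.88% of genes. *NOTCH1* was itself higher in *REST* cells with doxycycline than without, by 1.38, at values of 1.41, 2.29 and 1.91. *GADD45A* and *NT5E* were the 2 of 18 other target genes called higher in *REST* cells with doxycycline than without, by 1.60 and 1.28. Over all genes 1.28% were called higher there. Of the same 18 genes, 8 were higher and 5 lower in induced *N1ICD* than in induced *REST* cells. The other target genes thus did not all stand higher with *N1ICD*.

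In H82 the question was whether the members still rose when *REST* was knocked out. *REST* transcript was lower with doxycycline in the *REST* KO cells than in intact cells (difference -1.05), at 4.95, 4.95 and 5.89 against 6.48, 6.13 and 6.33, and was thus still present as RNA. With doxycycline 8 of 10 members were higher in the *REST* KO cells, against 16.2% of genes tested. *YAP1* went from 2.60, 2.65 and 3.02 to 6.40, 6.75 and 6.75 (difference 3.88 ± 0.17 SE, adjusted *P* = 2.99e-12), *AMOTL2* rose by 4.24, *ANKRD1* by 4.50, *AJUBA* by 3.71 and *LATS2* by 3.69. *TEAD3* was called at 1.01, a call lost without library 28, 29 or 33, and *TEAD4* differed by -0.19 (95% interval -0.66 to 0.28).

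With doxycycline, *AJUBA* was the member lower in *REST* KO than in intact cells, at 3.59, 4.14 and 3.95 against 5.35, 4.70 and 4.89 (difference -1.09 ± 0.25 SE, adjusted *P* = 0.00209), against 8.21% of genes called lower. *YAP1* differed by -0.29 (95% interval -0.65 to 0.06) and *WWTR1* by -0.09 (-0.43 to 0.26). The call of *AJUBA* was lost without library 7 or 31. Of the 17 other target genes tested, 5 were higher and 2 lower in *REST* KO than in intact cells with doxycycline. Over all genes the shares were 9.44% and 8.21%. Without doxycycline, *YAP1* was lower in *REST* KO cells, at 2.60, 2.65 and 3.02 against 4.36, 4.60 and 4.14 (difference -1.61 ± 0.17 SE, adjusted *P* = 9.78e-06), and so was *AMOTL2*, with a difference of -1.63 ± 0.44 (SE, adjusted *P* = 0.0178), against 2.85% of genes called lower. *AMOTL2* was no longer called without library 4, 28 or 30. *YAP1* was the 1 member whose response to doxycycline was larger in *REST* KO cells, against 7.46% of genes. The neuroendocrine genes *CHGA* and *SYP* were higher in *REST* KO cells with doxycycline than in intact ones, by 4.76 and 4.17, and *NOTCH1* by 4.69.

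The H82 libraries labelled *STING1* KO had *STING1* (listed as *TMEM173*) at 1.27, 1.53 and 2.04 with doxycycline against 1.07, 1.17 and 1.10 in intact cells, so that the transcript does not check this label. The paper examined single-cell *STING1* KO clones of H82 by immunoblot, that is, at the protein level. In the H82 libraries with this label 5 of 10 members were higher with doxycycline, against 12.2% of genes tested, namely *YAP1*, *AMOTL2*, *ANKRD1*, *AJUBA* and *LATS2*. *YAP1* went from 5.61, 5.90 and 5.69 to 6.89, 6.94 and 6.74 (difference 1.13 ± 0.17 SE, adjusted *P* = 3.85e-05), and *LATS2* from 0.25, 0.25 and 0.075 to 3.84, 3.49 and 3.41 (difference 3.39 ± 0.21 SE, adjusted *P* = 5.29e-10). With doxycycline no member passed the thresholds between *STING1* KO and intact cells, against 16.5% of genes tested in limma, and 3 had an unadjusted *P* under 0.05 (*WWTR1*, *TEAD4* and *LATS2*). *YAP1* differed there by -0.07 (95% interval -0.43 to 0.29), *WWTR1* by -0.44 (adjusted *P* = 0.043) and *LATS2* by 0.71 (adjusted *P* = 0.0107).

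Without doxycycline the libraries labelled *STING1* KO had more *YAP1* than intact cells, by 1.37 ± 0.17 (SE, adjusted *P* = 1.27e-05), and more *AJUBA*, at 2.22, 2.43 and 1.86 against 0.72, 0.63 and 0.73 (difference 1.48 ± 0.25 SE, adjusted *P* = 2.14e-04), 2 members against 6.64% of genes called higher. *WWTR1* differed by 0.97, just under the threshold. In these uninduced libraries *NOTCH1* had values of 2.15, 1.77 and 1.89, and 4 of 5 neuroendocrine markers were lower than in intact cells, with differences of -2.94 for *CHGA* and -1.64 for *NCAM1*. Over all genes 7.72% were called lower. The response to doxycycline was smaller in *STING1* KO than in intact cells for 4 members (*YAP1*, *WWTR1*, *TEAD2* and *AJUBA*), against 3.21% of genes, and larger for *TEAD4*, against 3.91%. Of the other target genes, *TGFB2* was lower in *STING1* KO than in intact cells with doxycycline, with a difference of -3.37, and *CCN1* of -1.35.

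The vector cells were compared with parental cells before induction. In H82, *N1ICD* cells without doxycycline had more *YAP1*, at 4.36, 4.60 and 4.14 against 2.82, 2.36 and 2.60 (difference 1.77 ± 0.17 SE, adjusted *P* = 7.96e-07), and more *WWTR1*, at 1.76, 2.05 and 1.83 against 0.10, 0.12 and 0 (difference 1.81 ± 0.16 SE, adjusted *P* = 4.45e-07), 2 members against 3.75% of genes called higher. *TEAD2* was lower (difference -1.09), against 2.66% of genes called lower, a call lost without library 3. *NOTCH1* had values of 0.041, 0.0073 and 0.0062 in the parental and 1.45, 0.88 and 1.15 in the vector cells. In H524, *N1ICD* cells without doxycycline had less *AMOTL2* than parental cells, at 2.10, 2.16 and 2.49 against 4.98, 4.00 and 5.43 (difference -2.55 ± 0.37 SE, adjusted *P* = 3.73e-04), and less *TEAD2* (difference -1.88 ± 0.34 SE, adjusted *P* = 0.00185), 2 members against 7.16% of genes called lower. No member was called between the uninduced *REST* cells and parental H524 cells, against 0.264% of genes, or between uninduced *N1ICD* and parental H69 cells, against 5.27%. The unadjusted limma *P* was under 0.05 for 2 members in the former (*WWTR1* and *TEAD2*) and for none in the latter. In the H69 comparison, *YAP1* differed by 0.31 (95% interval -0.20 to 0.81), and library 49 had *YAP1*, *AMOTL2* and *REST* at 0.92, 2.37 and 1.34, while libraries 50 and 51 had *YAP1* at 0.

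LSD1 inhibition with TAS1440, used in the study to activate Notch without a vector, gave the same direction in COR-L88. *YAP1* went from 1.36, 1.00 and 0.86 with DMSO to 6.20, 6.24 and 6.20 with TAS1440 (difference 5.14 ± 0.14 SE, adjusted *P* = 4.29e-11), and *WWTR1* from 1.89, 1.50 and 1.53 to 4.73, 5.04 and 5.14 (difference 3.33 ± 0.21 SE, adjusted *P* = 3.10e-08). In all, 9 of 10 members were higher, against 15.3% of the 13134 genes tested, and the exception was *TEAD1*, at 4.88, 4.90 and 4.80 and 4.80, 4.89 and 4.51. *ANKRD1* had the largest difference, from 1.76, 1.88 and 1.29 to 6.91, 7.11 and 6.80 (5.30 ± 0.34 SE, adjusted *P* = 4.06e-08). With a pseudocount of 0.1 the difference of *YAP1* was larger, at 5.94 against 5.79. *AMOTL2* rose by 3.90, *AJUBA* by 2.85 and *LATS2* by 2.47. *TEAD3* rose by 1.60 and *TEAD4* by 1.27. *TEAD2* was called at 1.10 from values of 0.091, 0.062 and 0.043, and the call did not hold under quantile normalization or median-centred libraries. Of the 7 members that passed the filter without TAS1440 libraries, 6 were higher.

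GSI given with TAS1440 lowered part of these levels. With TAS1440 plus GSI, *YAP1* had values of 4.98, 4.85 and 4.75 and *WWTR1* of 2.70, 2.86 and 2.67, between DMSO and TAS1440 in every library. Against DMSO, 8 members were higher, against 5.62% of genes tested, with *YAP1* at a difference of 3.78 ± 0.14 (SE, adjusted *P* = 6.83e-10) and *ANKRD1* at 2.22 ± 0.34 (SE, adjusted *P* = 2.78e-04), and the call of *TEAD3* (1.07) was lost without library 10. TAS1440 alone stood above TAS1440 plus GSI in 5 members (*YAP1*, *WWTR1*, *AMOTL2*, *ANKRD1* and *LATS2*), against 10.4% of genes. *ANKRD1* differed most, at 6.91, 7.11 and 6.80 against 3.74, 4.43 and 3.40 (difference 3.08 ± 0.34 SE, adjusted *P* = 1.27e-05), then *WWTR1* (difference 2.23 ± 0.21 SE, adjusted *P* = 4.32e-06), while *YAP1* differed by 1.35 ± 0.14 (SE, adjusted *P* = 1.00e-05). *TEAD2* went the other way, by -0.50 (adjusted *P* = 0.0358), under the threshold of size. *NOTCH1* was highest with GSI, at 6.73, 6.71 and 6.75, and *REST* had 6.31, 6.19 and 6.32 with GSI against 6.25, 6.57 and 6.48 without it.

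Of the other target genes, 14 of 15 tested were higher with TAS1440 (median difference 2.07, all genes 0.01), 7 with TAS1440 plus GSI against DMSO, and 11 higher with 1 lower (*NUAK2*) in TAS1440 against TAS1440 plus GSI. Over all genes the shares called were 15.3%, 5.62%, and 10.4% higher with 4.32% lower. Target genes that passed the filter through TAS1440 libraries alone had to differ, and their number was not counted. *CCN1* and *CCN2* rose by 3.81 and 3.66 with TAS1440 and by 2.02 and 2.54 with TAS1440 plus GSI. *NT5E*, the ectonucleotidase CD73, rose by 4.82 with TAS1440 and 1.28 with GSI added, and *F3*, tissue factor, by 4.44 with TAS1440. Among Hippo regulators, *WTIP* rose by 2.78, *FRMD6* by 2.72, *TAOK3* by 1.34 and *NF2* by 1.15 with TAS1440, 4 of 15 tested, where 15.3% of all genes were called higher. *VGLL3*, *VGLL1* and *VGLL2*, 3 of 4 VGLL genes, rose by 2.95, 1.84 and 1.65. Of 5 neuroendocrine markers, 4 were lower with TAS1440 and 3 with TAS1440 plus GSI, against 7.46% and 3.4% of genes called lower. *CHGA* and *SYP* differed from DMSO by -3.59 and -4.47 with TAS1440 and by -4.34 and -4.32 with GSI added. Not all markers went this way. Over the 5 markers the median difference from DMSO was -3.59 with TAS1440 and -1.16 with GSI added. Between TAS1440 and TAS1440 plus GSI, 2 of the 5 were lower with TAS1440 alone, against 4.32% of genes called lower.

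In COR-L88 cells with *STING1* KO, *STING1* was lower with TAS1440 than in intact cells (difference -1.13), at 1.16, 1.09 and 0.96 against 2.54, 2.04 and 2.03. TAS1440 raised 9 of 10 members in the KO cells, against 10.2% of genes tested, *YAP1* from 0.06, 0.29 and 0 to 5.32, 5.76 and 5.39 (difference 5.37 ± 0.14 SE, adjusted *P* = 2.12e-11) and *WWTR1* from 0.85, 1.38 and 0.46 to 4.37, 4.76 and 4.85 (difference 3.77 ± 0.21 SE, adjusted *P* = 1.26e-08). The call of *TEAD4* (1.02) was lost without library 44 or 45. No member's response to TAS1440 differed between KO and intact cells in limma, against 4.23% of genes, with an unadjusted *P* under 0.05 for 3 (*TEAD2*, *AMOTL2* and *LATS2*), and for *YAP1* the difference of the responses was 0.23 (95% interval -0.21 to 0.67). Library 41, with DMSO, had the highest values of its group in 8 members, and without it the response of *AMOTL2* was called.

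Some levels were lower in the KO cells. With DMSO, *ANKRD1* had values of 0.045, 0.18 and 0.095 in KO and 1.76, 1.88 and 1.29 in intact cells (difference -1.54 ± 0.34 SE, adjusted *P* = 0.0214), and *AMOTL2* differed by -1.01 ± 0.23 (SE, adjusted *P* = 0.0241), 2 members against 1.01% of genes called lower, and the call of *AMOTL2* was also lost without library 12. *YAP1* was -0.96 apart (adjusted *P* = 0.00228), just under the threshold of size. Without library 41, *YAP1* and *AJUBA* were called too, 4 in all, and without library 10, 11, 40 or 42 no member was called. With TAS1440, *ANKRD1* was lower in KO cells, at 5.12, 6.74 and 5.56 against 6.91, 7.11 and 6.80 (difference -1.13 ± 0.34 SE, adjusted *P* = 0.0255), 1 member against 5.06% of genes, and *YAP1* differed by -0.73 ± 0.14 (SE, adjusted *P* = 0.00289). The call of *ANKRD1* was lost without library 13, 14, 43 or 45. Of the other target genes, 5 of 15 were lower in KO cells with TAS1440, with differences of -2.30 for *MYOF*, -2.20 for *F3* and -1.89 for *CCN2*.

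In mouse KP1 cells the table was normalized separately, and its smallest values followed gene span (Spearman's rho -0.85 across 3006 genes) more closely than exonic length (-0.65), so that levels were compared neither between genes nor with the human lines. *Yap1* had values of 0.016, 0.018 and 0.03 with DMSO, 1.55, 1.80 and 1.67 with TAS1440 and 0.29, 0.23 and 0.14 with TAS1440 plus GSI. *Wwtr1* had 0.13, 0.14 and 0.033, 1.68, 1.52 and 1.45 and 0.0049, 0.015 and 0.11. TAS1440 stood above DMSO in *Yap1* by 1.65 ± 0.10 (SE, adjusted *P* = 3.81e-06) and in *Wwtr1* by 1.45 ± 0.10 (SE, adjusted *P* = 6.89e-06), with groups that did not overlap. With a pseudocount of 0.1 these differences were 4.32 and 3.59.

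Of 7 members tested in KP1, 6 were higher with TAS1440 than with DMSO, against 9.09% of the 8260 genes tested. Since 5 of these 6 entered through the TAS1440 libraries, *Amotl2* was the 1 called of the 2 that passed without them. *Amotl2* went from 1.56, 1.56 and 1.61 to 6.22, 5.52 and 5.49 (difference 4.17 ± 0.21 SE, adjusted *P* = 1.57e-06), *Ajuba* from 0.017, 0 and 0 to 3.50, 3.01 and 2.23 (difference 2.91 ± 0.26 SE, adjusted *P* = 3.25e-05) and *Tead2* from 0.41, 0.37 and 0.31 to 2.73, 2.65 and 2.45 (difference 2.25 ± 0.19 SE, adjusted *P* = 2.31e-05). *Ankrd1* was listed at 0 in every library with DMSO or with TAS1440 plus GSI and at 4.01, 6.45 and 3.68 with TAS1440. *Tead1* was the tested member not called, at 1.20, 1.22 and 1.22 and 1.19, 1.59 and 0.78. *Tead3*, *Tead4* and *Lats2* were too low to be tested, and *Lats2* was listed at 0 in the 6 libraries without TAS1440 alone and at 0.75, 0.49 and 0.86 with it.

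With GSI added, the calls of members against DMSO were lost. No member was called between TAS1440 plus GSI and DMSO, where limma called 1.21% of genes and 2 members had an unadjusted *P* under 0.05 (*Tead2* and *Amotl2*), and *Yap1* differed there by 0.20 (95% interval -0.02 to 0.42), its groups not overlapping. TAS1440 stood above TAS1440 plus GSI in 6 of 7 members, the ones that were higher against DMSO, against 8.50% of genes, with *Yap1* at a difference of 1.46 ± 0.10 (SE, adjusted *P* = 1.01e-05). Of the other target genes, 6 of 10 tested were higher with TAS1440 than with DMSO and 7 than with TAS1440 plus GSI, *Ccdc80* by 8.37 and 8.28 and *Axl* by 4.15 and 4.14. *F3* was lower with TAS1440 plus GSI than with DMSO (difference -1.82 ± 0.27 SE, adjusted *P* = 0.00976). *Gadd45a* was called only against TAS1440 plus GSI. From DMSO it differed by 0.74 with TAS1440 and by -1.70 with GSI added. *Ccn1* and *Ccn2* of the mouse were not analysed here. All 3 neuroendocrine markers tested were lower with TAS1440 than with DMSO, against 9.7% of genes called lower. *Insm1* had a difference of -4.87, and none of the markers was called with GSI added.

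**Figure D5:**
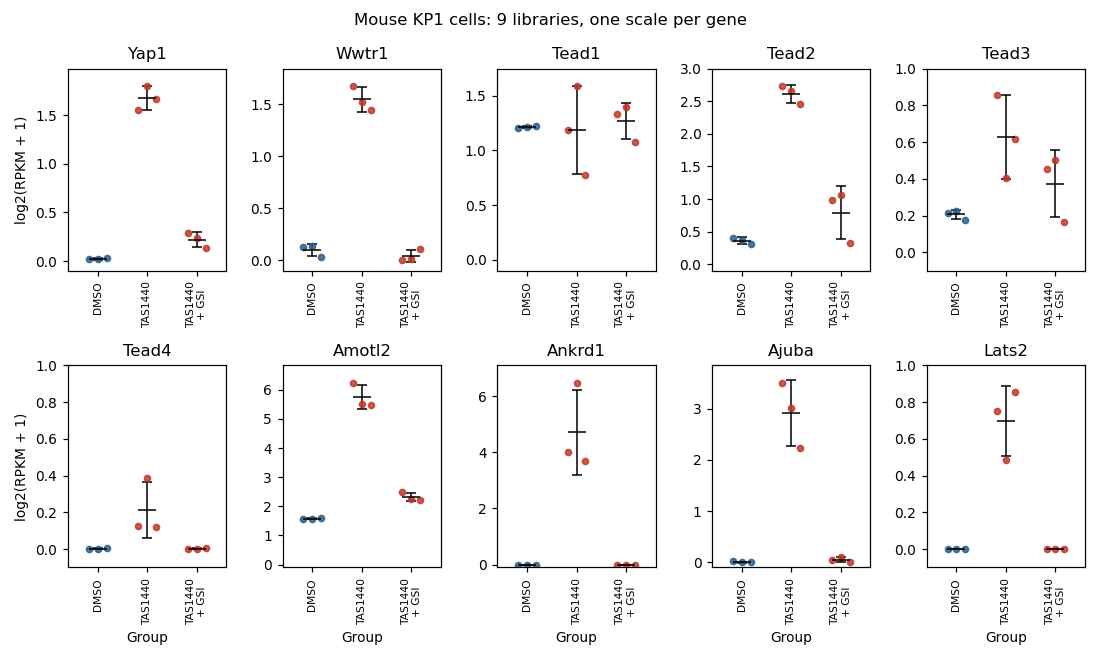
The 10 mouse genes in KP1 cells as log2(RPKM + 1) (y axes, 1 scale per gene) with DMSO, TAS1440 or TAS1440 plus GSI (x axis), with points for libraries and bars for the mean and SD of 3 libraries. *Yap1* with TAS1440 sits at 1.55, 1.80 and 1.67, above all other libraries, and *Tead1* overlaps between the groups.

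Over the 20 human groups the levels of *YAP1* formed an order in which 13 of 19 neighbouring pairs had overlapping ranges. The gaps lay between H524 *REST* cells with doxycycline (mean 1.53) and parental H82 (2.59), on both sides of H82 *N1ICD* cells without doxycycline (4.36), above COR-L88 with TAS1440 plus GSI (4.86), above COR-L88 with TAS1440 (6.21) and below H69 with doxycycline (7.43). *TEAD4* had overlapping ranges in all 19 pairs and *TEAD1* in 18. The neighbours of a pair without overlap differ beyond the range of their 3 libraries, and the others do not. Of 13962 genes with a mean of at least 2 in some group, those whose 20 group means followed *YAP1* most closely were *SPATS2L* (Pearson's r = 0.92), *IFI35* (0.92), *NOTCH2* (0.91), *MSRB3* (0.91) and *KIF1C* (0.91). Among the members, *AMOTL2* ranked 13 (r = 0.89), *TEAD3* 14 (0.89) and *WWTR1* 28 (0.87), followed by *AJUBA* (0.86), *LATS2* (0.80), *ANKRD1* (0.69), *TEAD2* (0.67), *TEAD1* (0.48) and *TEAD4* (0.43). *INSM1*, at -0.88, stood near the other end. These correlations describe groups of 4 lines that share their control libraries and carry no test.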

How the data were processed

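Bulk RNA-Seq of 69 libraries was analysed. As the methods of the study describe, the authors sequenced paired reads from a stranded mRNA kit, trimmed them with Cutadapt, mapped them with STAR (hg19), estimated gene counts by RSEM, applied TMM factors from edgeR and formed RPKM values. The labels also name mm10. The deposited files hold log2 values of RPKM + 1 for the human and the KP1 libraries, normalized separately. Tool versions, gene lengths and use of strand in counting are not given in the sources used here, and without read counts no precision from depth can be stated.

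Groups were compared with limma 3.58.1 (R 4.3.3) by moderated, two-sided tests with a variance trend, with a mean per group in a fit per cell line. A gene entered a fit if at least 3 of its libraries reached a log2 value of 1. *P* values were adjusted by Benjamini-Hochberg over all genes of a fit. Interactions were differences of differences, those between lines in a fit of the 60 human libraries. The study used limma voom, which needs counts. The fits were tested on simulated data. Positions are those of GENCODE for GRCh37. Python 3.11.15 with pandas 2.3.3 and matplotlib 3.10.9 made tables and figures.

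The members and lists were chosen with earlier results of these data known, and 1 list gene is not reported here. Named were the members, *CCN1* and *CCN2*, the targeted or induced genes, up to 4 called genes per list and comparison by size, and the 5 genes most like *YAP1*. Others named (single list members at low values or with a call elsewhere) were chosen after their values were seen. Alternatives were no filter, 0.1 as pseudocount, libraries centred on their medians, quantile normalization, fits of the compared groups alone, variances without a trend, all 60 human libraries in 1 fit, each library left out in turn and, chosen after seeing the data, libraries 4, 22, 41 and 49 left out together. No 2 libraries of a group were identical.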

Additional observations from a re-analysis of the deposited data

Results flagged for a closer look

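Groups of 3 libraries are too small for a check of single outlying libraries, so that the results given here are those whose response differed between groups by limma's test of the difference itself, in log2(RPKM + 1) units with the adjusted *P* over all genes of the fit. In H82, the response of *YAP1* to doxycycline was larger in *REST* KO than in intact cells by 1.31 ± 0.24 (SE, adjusted *P* = 8.19e-04). In cells labelled *STING1* KO the responses were smaller for *YAP1* (-1.44 ± 0.24 SE, adjusted *P* = 9.18e-04), *WWTR1* (-1.41 ± 0.23 SE, adjusted *P* = 8.87e-04), *AJUBA* (-1.21 ± 0.35 SE, adjusted *P* = 0.0359) and *TEAD2* (-1.01 ± 0.28 SE, adjusted *P* = 0.0274), and larger for *TEAD4* (1.25 ± 0.31 SE, adjusted *P* = 0.0179). The result for *TEAD2* was lost without library 4, 5, 8, 56, 57 or 58, that for *TEAD4* without library 56 and that for *AJUBA* without library 5, 6, 7, 9, 55, 56, 59 or 60. In each of these cases the uninduced levels of the lines differed more than the induced ones.

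In H524, the response to doxycycline was larger with *N1ICD* than with *REST* for *YAP1* (5.04 ± 0.41 SE, adjusted *P* = 1.30e-06), *AMOTL2* (4.36 ± 0.52 SE, adjusted *P* = 4.07e-05), *WWTR1* (2.14 ± 0.28 SE, adjusted *P* = 8.72e-05), *TEAD3* (2.04 ± 0.57 SE, adjusted *P* = 0.0231), *TEAD1* (1.93 ± 0.41 SE, adjusted *P* = 0.00406), *LATS2* (1.86 ± 0.22 SE, adjusted *P* = 3.83e-05) and *AJUBA* (1.48 ± 0.35 SE, adjusted *P* = 0.00826). The result for *TEAD3* was lost without library 26, 27, 34, 38 or 39, and that for *AJUBA* with a pseudocount of 0.1 (adjusted *P* = 0.114).

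Between the *N1ICD* lines, H69 exceeded H82 in *YAP1* (4.56), *AMOTL2* (3.51), *TEAD3* (3.40), *TEAD4* (2.34), *TEAD2* (2.22) and *WWTR1* (1.13), with adjusted *P* values up to 1.19e-04, and fell short of it in *AJUBA* (-1.11 ± 0.33 SE, adjusted *P* = 0.00355). H524 exceeded H82 in *YAP1* (3.49 ± 0.31 SE, adjusted *P* = 1.14e-12) and *TEAD1* (1.41 ± 0.27 SE, adjusted *P* = 4.53e-05) and fell short of it in *ANKRD1* (-3.43 ± 0.43 SE, adjusted *P* = 1.76e-08) and *AJUBA* (-1.93 ± 0.33 SE, adjusted *P* = 7.51e-06). H69 exceeded H524 in *ANKRD1* (3.89), *AMOTL2* (2.79), *TEAD3* (2.42), *TEAD2* (2.14), *TEAD4* (1.57) and *YAP1* (1.07), with adjusted *P* values up to 0.00307, and fell short of it in *TEAD1* (-2.31 ± 0.27 SE, adjusted *P* = 7.53e-10). Between H69 and H82, *AJUBA* was lost without library 7, under quantile normalization and with median-centred libraries. Between H69 and H524, *YAP1* was lost without library 25, 50 or 51, under quantile normalization and with a pseudocount of 0.1 (adjusted *P* = 0.293). For *ANKRD1*, which was at or near 0 without doxycycline in H69 and H524, these sizes depend on the pseudocount, as do those of other members that start near 0. With a pseudocount of 0.1, H69 exceeded H82 in *WWTR1* by 3.42, in *TEAD2* by 4.13, in *TEAD3* by 5.34 and in *YAP1* by 7.02, and H524 exceeded H82 in *YAP1* by 6.12. The *AJUBA* value for *STING1* KO was lost under quantile normalization, as was that of *TEAD2*.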

How the results depend on the processing

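No paired analysis was possible because the library numbers in the labels run through the series and pair no samples across groups, and the numbers shared by KP1 and human libraries belong to different cell lines. Of 2006 values of single members, under the alternatives, that were called in the reported fits, 1928 kept their direction and their side of the thresholds, 78 kept their direction but were no longer called, and 0 reversed; calls gained are given as counts. Of 133 such called values, a pseudocount of 0.1 moved 41 by over 1.5 times, most of them of members near 0 in one group.

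The counts of members called in the 3 *N1ICD* lines, with TAS1440 in COR-L88 and in KP1 stayed within 1.5 times under every alternative. Smaller counts moved, and except where an alternative has fewer libraries the cause was not tested. With only the compared groups, 1 member was called between *REST* KO and intact H82 cells without doxycycline (*YAP1*, of 2), 1 for *REST* in H524 (*TEAD2*, of 0), 1 for uninduced *N1ICD* against parental H524 cells (of 2), 0 between *STING1* KO and intact COR-L88 cells with TAS1440 (of 1) and 1 with DMSO (of 2). With a pseudocount of 0.1 the last 3 became 4, 2 and 5, and the interactions gave 2 for *REST* KO (of 1), 2 for *STING1* KO in COR-L88 (of 0) and 7 for H524 against H82 (of 4). Quantile normalization gave 3 for the *STING1* KO interaction in H82 (of 5) and 1 for COR-L88 with DMSO, as did median-centred libraries and the fit of all 60 human libraries. The latter also called 2 for *REST* in H524, 1 for uninduced *REST* against parental H524 cells (*TEAD2*, of 0) and 2 for the *REST* KO interaction. Without libraries 4, 22, 41 and 49, an alternative chosen after seeing the data, the counts were 1 for *REST* KO without doxycycline, 1 for *REST* in H524, 1 for uninduced *REST* cells, 4 for COR-L88 with DMSO, 2 for the *REST* KO interaction and 1 for the *STING1* KO interaction in COR-L88.

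With 1 library left out at a time, the counts ranged as follows. They were 0 to 2 for *REST* KO against intact H82 cells with doxycycline and 1 to 2 without it, 0 to 1 for *STING1* KO against intact H82 cells with doxycycline, 0 to 1 for *REST* in H524, 0 to 1 for *STING1* KO in COR-L88 with TAS1440 and 0 to 4 with DMSO. The interactions gave 1 to 3 for *REST* KO, 2 to 4 for *STING1* KO in H82 and 0 to 1 in COR-L88. Read depth is unknown, so that a member listed at 0 is not shown to be absent.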

Other observations

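In H69 *N1ICD* cells without doxycycline, library 49 had *YAP1* at 0.92, *AMOTL2* at 2.37 and *TEAD3* at 0.84, while libraries 50 and 51 had *YAP1* at 0, *AMOTL2* at 0.42 and 1.03 and *TEAD3* at 0.14 and 0.095. The same library had *NEUROD1* at 10.61, against 8.88 and 8.69 in the other two.

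In COR-L88 cells with DMSO, *TEAD2*, *TEAD4* and *TEAD1* made up 0.106%, 25.6% and 63.9% of the summed TEAD RPKM, and 1.77%, 39.9% and 36.1% with TAS1440. In H82 cells labelled *STING1* KO, *TEAD4* made up 20.8% without and 14.8% with doxycycline. The letters of the core motif of RBPJ, the DNA-binding partner of *N1ICD* (TTCCCA, or TGGGAA on the other strand), lay in the *ANKRD1* promoter window at positions -146 and -68 from the start and in both *TEAD2* windows, and 24.0% of all windows held them.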
